A study of Mus musculus with 15 samples.

Results

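The comparison is of epididymal white adipose tissue from mice refed ad libitum after dietary restriction (DR-AL) with the same tissue from mice still restricted (DR). All loci with a gene name were taken, 23589 of the 33603 loci in the count table, and 17300 of them had a mean of at least 10 normalised counts in the DR and DR-AL libraries and were tested. RNA was sequenced from 5 tissues of male C57BL/6 mice on 3 diets, 15 libraries in all, and the 2 libraries compared here were 2 of these. DR mice received 60% of the ad libitum (AL) food intake, a restriction of 40%, for 1 month from 4 months of age and were 5 months of age when tissue was taken. DR-AL mice had the same month of restriction and then 2 months of AL feeding, and were 7 months of age, so diet and age cannot be told apart. The AL mice, 5 months of age and never restricted, gave another fat library, which is set beside the others and enters no ratio. Each library held the pooled RNA of 5 mice. With 1 library a side there is no replicate check, and every difference below is one between 2 libraries.

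White adipocytes store fatty acids as triglyceride in a large lipid droplet and release them by lipolysis when food is short. They can also make fatty acids from glucose: citrate leaves the mitochondria, ATP citrate lyase cuts it to acetyl-CoA, acetyl-CoA carboxylase makes malonyl-CoA, and fatty acid synthase builds palmitate. Insulin and feeding drive this pathway through the transcription factors SREBP-1c and ChREBP. Fat tissue also holds macrophages, lymphocytes, vessels and fibroblasts, and each adipocyte sits in a basement membrane and a net of collagen.

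The DR library held 22829358 counts on named loci, the DR-AL library 27357403 and the AL library 26217345. Adipocyte genes were abundant in all 3 libraries, as the label says. Adipoq, the gene of adiponectin, had 130326 normalised counts in AL, 85336 under DR and 52588 in DR-AL, and Fabp4, the fatty acid binding protein of adipocytes, had 522897, 336748 and 241391. RNA of other organs was present too. Prm2, a protamine of maturing sperm, had 48.8 normalised counts in AL, 4689 under DR and 17599 in DR-AL, and loci that were under 1 CPM (counts scaled to the library total) in AL fat took 0.121%, 1.10% and 4.25% of the counts. The AL share is small by the choice of those loci, so only the DR and DR-AL shares can be compared. Apoa1, an apolipoprotein made by the liver, stood at 36309 in AL but at 314 in DR and 67.6 in DR-AL, so AL values of genes that the liver also expresses include whatever liver RNA that library held.

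A locus was called when its normalised counts, with 0.5 added, differed by at least 1.5-fold. Over all 17300 loci, 4279 (24.7%) were higher in DR-AL and 2833 (16.4%) were lower, 7112 (41.1%) in all, with a median log2 ratio of -0.02. Calls that were higher made up 60.2% of all calls, against 77.4% with scaling by library totals, 68.1% with size factors from the 3 fat libraries, 71.8% with size factors from loci of at least 5 CPM in AL fat, 20.7% with the deposited FPKM values and 95.5% when the ratios were set relative to the adipocyte genes. Among the 11421 loci with at least 5 CPM in AL fat, a group that held 2 of the 16 germ cell genes, 996 (8.72%) were higher and 2137 (18.7%) were lower, with a median of -0.16. The other scalings moved the median of all tested loci to 0.24 with totals, 0.15 with the loci of at least 5 CPM, -0.58 with FPKM and 0.89 relative to the adipocyte genes. A list median is therefore to be read against the median of all loci on its own scale. The adipocyte genes were Adipoq, Plin1, Fabp4, Lipe, Cfd, Lep, Cidec, Pparg, Retn and Slc2a4. Their median is 0 on the scale relative to them, and some are also members of the metabolism lists. Such lists are drawn towards 0 on that scale by construction. Counting error is given as an exact 95% interval where a gene carries a result, and it leaves out all variation between mice. By scale, totals put 32.4% of loci higher and 9.47% lower, FPKM 13% and 49.7%, and the ratios relative to the adipocyte genes 70.8% and 3.32%. A fold of 2 left 17.2% higher and 7.09% lower, and the Z test that the study used, with its lower fold, gave 38.7% and 13.4%.

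**Figure D1:**
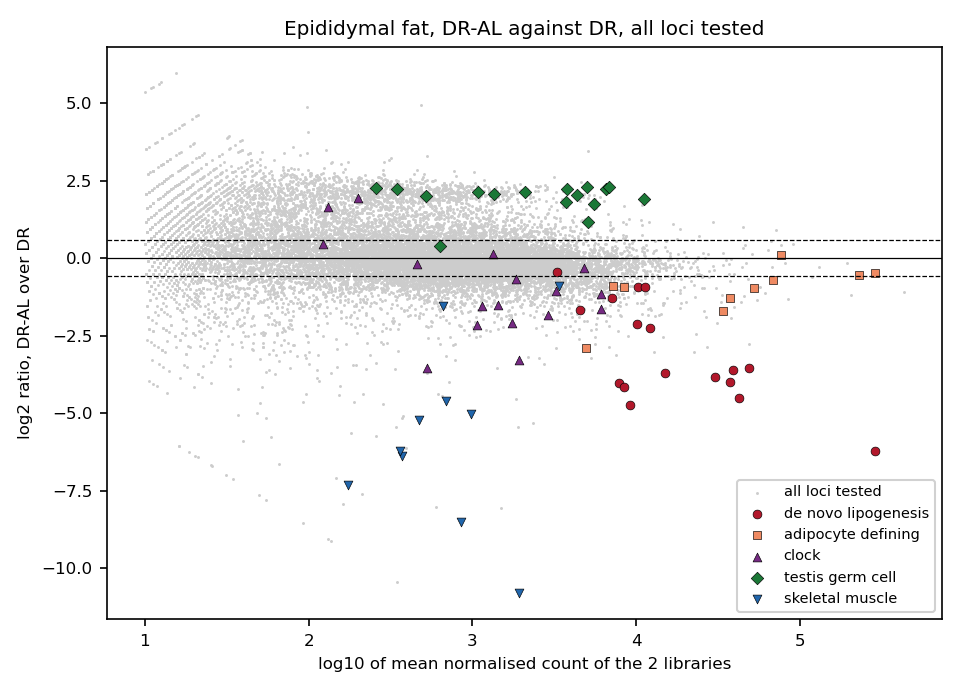
Log2 ratio of DR-AL over DR in epididymal fat (y axis) against the log10 mean normalised count of the 2 libraries (x axis) for the 17300 loci tested, with dashed lines at a fold of 1.5. The lipogenic genes lie far below 0 at high counts, Fasn lowest among them at -6.21, most sperm genes form a band near 2 and the skeletal muscle genes lie below 0 down to -10.79.

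Genes of adipose metabolism were the most shifted of the 3 groups examined. Of 151 members that passed the filter, out of 155 measured, 86 (57.0%) were lower in DR-AL, 17 (11.3%) were higher and 48 were neither. The median log2 ratio was -0.79. Relative to the adipocyte genes 46 were higher and 35 lower, on a scale where 70.8% of all loci were higher and 3.32% lower. Extracellular matrix genes had 41 of 118 (34.7%) lower, 16 (13.6%) higher and a median of -0.36, and relative to the adipocyte genes 57 were higher and 6 lower. Immune genes had 27 of 139 (19.4%) higher and 16 (11.5%) lower, shares below those of all loci (24.7% and 16.4%), with a median of -0.02. With totals 41 were higher and 9 lower, beside 32.4% and 9.47% of all loci. Relative to the adipocyte genes 99 were higher and 2 lower, beside the 70.8% and 3.32% of all loci. In bulk tissue, fewer cells of a type and less RNA per cell cannot be told apart. The plot of list members shows each gene's ratio and each list's median.

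**Figure D2:**
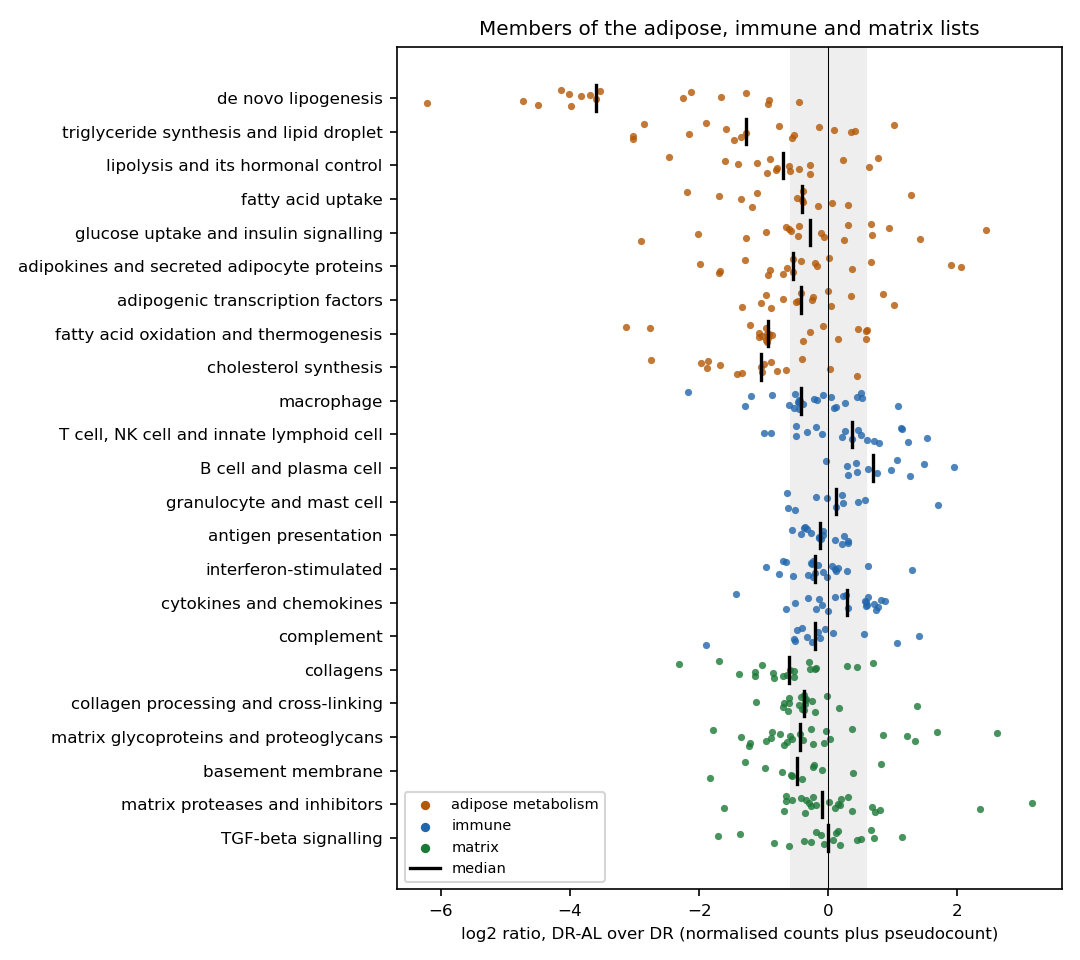
Log2 ratio of DR-AL over DR (x axis) for the members of the adipose metabolism (orange), immune (blue) and matrix (green) lists that passed the filter, 1 point a gene, with a bar at each list's median and grey shading for ratios within 1.5-fold. The de novo lipogenesis list has its median at -3.59, while the antigen presentation list lies wholly within the shading.

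Of the lists in these 3 groups, de novo lipogenesis had the lowest median. Of its 17 members that passed the filter, 16 were lower in DR-AL and 0 higher, with a median of -3.59, or -2.68 relative to the adipocyte genes and -4.25 with FPKM. The exception was Elovl5, which elongates polyunsaturated fatty acids, at -0.46. Under each of 6 count scalings, 13 of the 17 were lower by the fold. Fasn, fatty acid synthase, had 36278 normalised counts in AL, 566959 under DR and 7669 in DR-AL, from 31981, 473270 and 9187 reads. It was 73.9-fold lower in DR-AL, a log2 ratio of -6.21 (95% counting interval -6.24 to -6.18). The DR library was the high one, and the DR-AL value also lay under that of AL. At the other steps the DR library was again the highest. Acly, ATP citrate lyase, had 4197 normalised counts in AL, 70065 under DR and 4439 in DR-AL, a log2 ratio of -3.98 (-4.02 to -3.94). Acaca, the cytosolic acetyl-CoA carboxylase and the rate-limiting enzyme, had 12637, 81572 and 3617, a ratio of -4.50 (-4.54 to -4.45). Its mitochondrial counterpart Acacb, whose malonyl-CoA restrains fatty acid oxidation, differed far less, with 8939, 13554 and 7119 and a ratio of -0.93.

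Enzymes around the core pathway were lower as well. Elovl6, which elongates palmitate, had 846 normalised counts in AL, 17654 under DR and 665 in DR-AL, a log2 ratio of -4.73. Acss2, which makes acetyl-CoA from acetate, had 2197, 15927 and 898, a ratio of -4.15. The carrier that brings citrate out of mitochondria, Slc25a1, was lower by -3.69 on the log2 scale, with 28019 in DR and 2177 in DR-AL. For NADPH, malic enzyme Me1 stood at -3.59 and the pentose phosphate genes Pgd and G6pdx at -2.12 and -1.28, and the transketolase Tkt at -3.53. Thrsp, a lipogenic factor of fat and liver, was at -3.84 and the lipid remodelling enzyme Pnpla3 at -4.02. Among the regulators the differences were smaller. Srebf1, which encodes SREBP-1, had 6662 normalised counts in AL, 20111 under DR and 4215 in DR-AL, a ratio of -2.25, and Mlxipl, which encodes ChREBP, had 4074, 6948 and 2200, a ratio of -1.66. Per unit of transcript length within the DR library, Fasn stood at 767 FPKM against 301 for Acly and 143 for Acaca, whereas within the DR-AL library Acly was the highest of these at 14.5 FPKM, against 7.05 for Fasn and 4.16 for Acaca. The major stearoyl-CoA desaturase of fat, Scd1, had 756056 reads in AL and 392180 in DR-AL and was listed at 0 in the DR libraries of all 5 tissues, so its 0 in DR fat was not read as a level and no ratio was formed. Its paralog Scd2 had 2337, 14867 and 7838 normalised counts, a ratio of -0.92.

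The promoters of 3 of these genes are shown because the members moved together. The windows run from 250 bases before to 50 after the RefSeq transcription start on GRCm38.p6, on the gene's strand, and capitals mark CCAAT and CACGTG on either strand (CCAAT read on the other strand is ATTGG). Fasn is at chr11:120824498-120824797, Acly at chr11:100527951-100528250 and Slc25a1 at chr16:17928170-17928469, all on the minus strand.
Fasn: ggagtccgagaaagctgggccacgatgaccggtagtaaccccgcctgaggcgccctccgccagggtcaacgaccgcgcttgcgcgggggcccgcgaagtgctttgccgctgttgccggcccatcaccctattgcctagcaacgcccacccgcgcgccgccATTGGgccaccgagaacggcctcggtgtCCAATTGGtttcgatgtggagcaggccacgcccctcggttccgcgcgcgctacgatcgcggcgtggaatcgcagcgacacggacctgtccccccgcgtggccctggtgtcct
Acly: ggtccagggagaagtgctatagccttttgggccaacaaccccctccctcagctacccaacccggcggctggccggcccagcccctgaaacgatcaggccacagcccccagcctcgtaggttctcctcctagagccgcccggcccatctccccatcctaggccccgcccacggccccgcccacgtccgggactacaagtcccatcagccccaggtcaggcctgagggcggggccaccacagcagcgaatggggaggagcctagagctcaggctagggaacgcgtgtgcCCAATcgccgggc
Slc25a1: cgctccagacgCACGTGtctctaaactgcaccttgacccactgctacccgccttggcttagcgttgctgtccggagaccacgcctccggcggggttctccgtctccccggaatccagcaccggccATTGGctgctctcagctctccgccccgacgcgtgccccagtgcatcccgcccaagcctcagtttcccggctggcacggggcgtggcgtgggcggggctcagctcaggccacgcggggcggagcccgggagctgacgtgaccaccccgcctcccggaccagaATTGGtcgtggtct
Fasn held CCAAT 3 times, 2 of them overlapping on opposite strands in CCAATTGG, Acly held it 1 time, and Slc25a1 held it 2 times together with 1 CACGTG. Of the 21 RefSeq windows of 16 lipogenic genes found by symbol, 61.9% held CCAAT, against 37.4% of all 32851 windows, and 14.3% held CACGTG, against 7.15%. GGGCGG was in 52.4% of the lipogenic windows and 35.7% of all, TATAAA in 4.76% and 13.6%, and the consensus PPAR response element in 0 and 0.0396%. On either strand GGGCGG and CCAAT can overlap by at most 2 bases, and CACGTG is its own reverse complement and was counted 1 time a site. These are matches of letters and not binding sites.

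**Figure D3:**
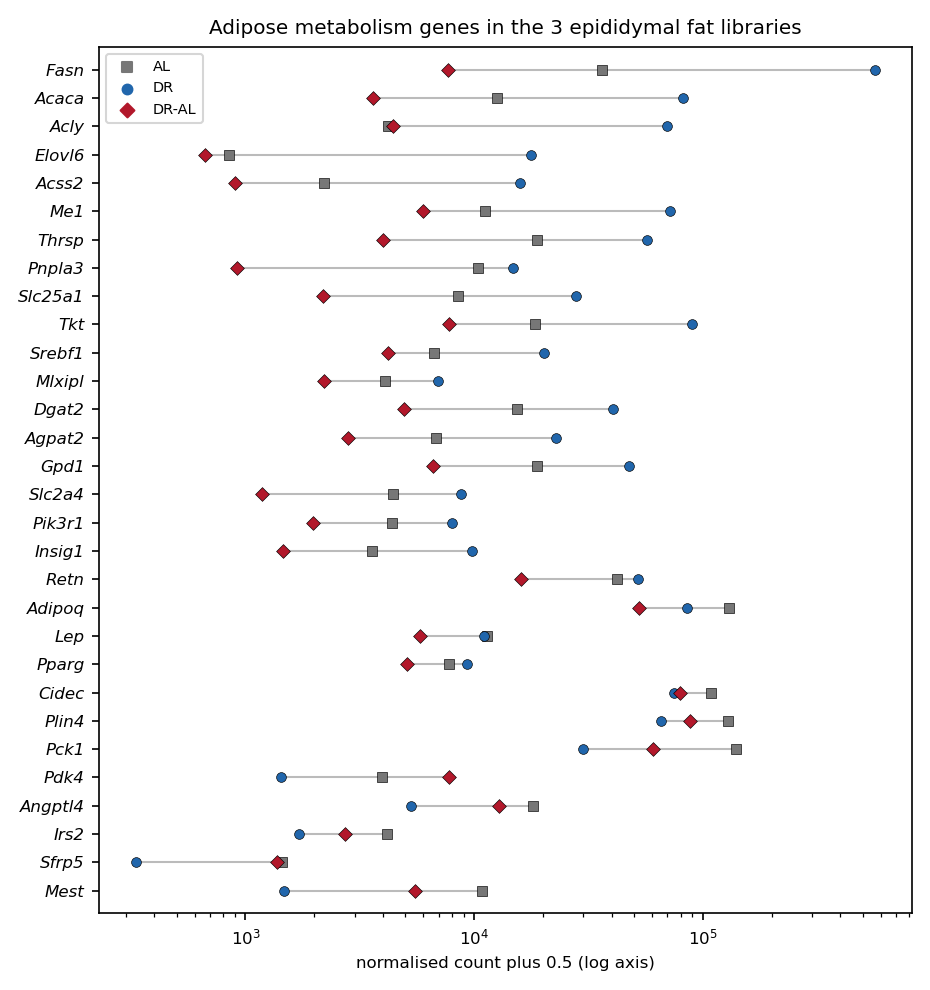
Normalised counts plus 0.5 on a log axis of adipose metabolism genes in the AL (grey), DR (blue) and DR-AL (red) fat libraries, 1 library each. DR is the highest library and DR-AL the lowest for each gene from Fasn to Insig1 except Acly, whose lowest is AL at 4197, while Pck1, Pdk4, Angptl4, Irs2, Sfrp5 and Mest stand lowest in DR.

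In triglyceride synthesis and the lipid droplet, 10 of 17 genes were lower and 1 higher, with a median of -1.28. Relative to the adipocyte genes it was -0.37, where all loci stood at 0.89. Dgat2, a last-step enzyme of triglyceride synthesis, had 15431 normalised counts in AL, 40345 under DR and 4938 in DR-AL, a log2 ratio of -3.03. Agpat2, the acyltransferase lost in a form of lipodystrophy, had 6826, 22886 and 2808, also -3.03. Gpd1, which makes glycerol 3-phosphate from a glycolytic intermediate, had 18774, 47462 and 6592, a ratio of -2.85. Pck1, the cytosolic phosphoenolpyruvate carboxykinase of glyceroneogenesis, had 140263 in AL, 29974 under DR and 60669 in DR-AL and was 2.02-fold higher in DR-AL (log2 1.02, interval 1.00 to 1.04). Coat proteins of the droplet were split, with Plin1, the perilipin of adipocytes, at 53409 in DR and 21995 in DR-AL (-1.28), Plin4 at 65967 and 88228 (0.42) and Cidec, which fuses droplets, at 74932 and 79684 (0.09).

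Genes of lipolysis were lower for 10 of 16 and higher for 2, with a median of -0.70. Relative to the adipocyte genes, of which Lipe is 1, the median was 0.21, on a scale where all loci stood at 0.89. Adipose triglyceride lipase, Pnpla2, had 86330 normalised counts in AL, 73892 under DR and 60962 in DR-AL, a log2 ratio of -0.28 that did not reach the fold. Hormone-sensitive lipase, Lipe, had 65478, 68972 and 35748, a ratio of -0.95. The widest falls were in receptors that restrain lipolysis. Ptger3, a prostaglandin E2 receptor, had 2002, 4797 and 866, a ratio of -2.47, and Adora1, the adenosine A1 receptor, had 3797, 5842 and 1922, a ratio of -1.60. Aqp7, the glycerol channel, was the highest member, with 7739, 3582 and 6124 and a ratio of 0.77.

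Fatty acid uptake had 5 of 13 members lower and 1 higher, beside 16.4% and 24.7% of all loci. Its median was -0.40, or 0.50 relative to the adipocyte genes, where all loci stood at 0.89. Lpl, lipoprotein lipase, which frees fatty acids from circulating triglyceride, had 419995 normalised counts in AL, 287034 under DR and 126682 in DR-AL, a log2 ratio of -1.18. Its inhibitor Angptl4 was the higher member, with 18020, 5301 and 12863 and a ratio of 1.28. Fabp5, another fatty acid binding protein, had 4010, 6791 and 2107, a ratio of -1.69. The scavenger receptor Cd36 had 116337, 86113 and 77106, a ratio of -0.16.

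For glucose uptake and insulin signalling 6 of 18 genes were lower and 5 higher, beside 16.4% and 24.7% of all loci. The list median was -0.29. It was 0.62 relative to the adipocyte genes, where all loci stood at 0.89. Slc2a4, the insulin-responsive transporter GLUT4, had 4403 normalised counts in AL, 8764 under DR and 1175 in DR-AL and was 7.45-fold lower (log2 -2.90). Pik3r1, the regulatory subunit of phosphoinositide 3-kinase, had 4368, 8004 and 1972, a ratio of -2.02. On the other side stood Pdk4, the kinase that turns off pyruvate dehydrogenase and spares glucose, with 3943, 1428 and 7792 and a ratio of 2.45 (2.36 to 2.54). The hexokinase genes went opposite ways: Hk1 had 994, 3667 and 9836, a ratio of 1.42, and Hk2, the form of insulin-sensitive tissue, had 3476, 5352 and 2211, a ratio of -1.28. Hk1 has a sperm form, and the sperm genes were higher in DR-AL too; their part in the Hk1 value was not tested. Irs2, a substrate of the insulin receptor, was at 0.67, and the receptor itself, Insr, at -0.07.

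Among adipokines and other secreted proteins of adipocytes, 8 of 18 genes were lower and 3 higher, beside 16.4% and 24.7% of all loci. Their median was -0.54, or 0.36 relative to the adipocyte genes, where all loci stood at 0.89. Leptin, Lep, had 11351 normalised counts in AL, 11088 under DR and 5801 in DR-AL, a log2 ratio of -0.93, and adiponectin was at -0.70. Resistin, Retn, had 42338, 52080 and 16046, a ratio of -1.70, Rbp4, the retinol carrier, was at -1.67, and Bmp3, a growth factor of the BMP family, at -1.98. The higher genes included Sfrp5, a secreted Wnt antagonist, with 1443, 332 and 1376 (2.05), and Mest, an imprinted gene known as a marker of fat expansion, with 10833, 1477 and 5534 (1.91). For Sfrp5 the DR-AL value lay beside that of AL, and for Mest between DR and AL.

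Of the adipogenic transcription factors, 5 of 15 were lower and 2 higher, beside 16.4% and 24.7% of all loci. Their median was -0.42, or 0.48 relative to the adipocyte genes, where all loci stood at 0.89. Pparg, the master factor of adipocyte identity, had 7784 normalised counts in AL, 9349 under DR and 5065 in DR-AL, a log2 ratio of -0.88, and Cebpa, its partner, was at -1.34. Cebpd, which acts early in differentiation and responds to stress, was higher, with 1795, 764 and 1540 and a ratio of 1.01. Of the zinc finger factors, Klf4 was higher at 0.84 and Klf15 lower at -1.04.

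Fatty acid oxidation and thermogenesis had 13 of 21 members lower and 3 higher, with a median of -0.93. Relative to the adipocyte genes it was -0.02, where all loci stood at 0.89. The mitochondrial enzymes of beta oxidation lay close together, Acadvl at -1.07, Acadm at -1.03, Hadha at -0.92 and Cpt2 at -0.93, while Cpt1a, the entry step in the liver, was at 0.15. Elovl3 and Cox8b, genes that brown fat expresses highly, were lower by -3.14 and -2.77, from 47.9 and 497 normalised counts in DR to 5.01 and 72.6 in DR-AL. Cox8b is also expressed in muscle, and all 10 skeletal muscle genes were lower in DR-AL with a median of -5.71, whose part in the Cox8b value was not tested. Ucp1, the uncoupling protein that defines brown fat, was at or under 6.68 normalised counts in each library and was not tested. Cpt1b, Ucp2 and Ucp3 were just past the fold at 0.59, 0.59 and 0.60, and their FPKM ratios had the opposite sign.

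Cholesterol synthesis had 13 of 16 genes lower and 0 higher, with a median of -1.04. Relative to the adipocyte genes it was -0.13, where all loci stood at 0.89. Insig1, which holds SREBPs back and is also their target, had 3586 normalised counts in AL, 9810 under DR and 1454 in DR-AL, a log2 ratio of -2.75. Sc5d, a late enzyme of the pathway, was at -1.98. Sqle, squalene epoxidase, did not reach the fold, with 370, 788 and 806 and a ratio of 0.03. Srebf2, the factor that drives the pathway, was at -0.40. Hmgcs1 was listed at 0 in all 15 libraries and was not used.

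Among immune genes, B cell and plasma cell genes were higher for 7 of 12 and lower for 0, with a median log2 ratio of 0.69. With FPKM it was 0.05, where all loci stood at -0.58. Of all loci 24.7% were higher, 4279 in number, and 996 of these had at least 5 CPM in AL fat. Most higher calls thus fell on scarcer loci. Of the 12 B cell genes, 3 had at least 5 CPM, and 2 of those were higher. Whether the list was higher more often than equally scarce loci was not tested. Igj, the J chain of secreted antibody, had 1126 normalised counts in AL, 351 under DR and 980 in DR-AL, a ratio of 1.48 (1.30 to 1.67). Cd79a, a chain of the B cell receptor complex, had 161, 76.7 and 130, a ratio of 0.76. In both the DR library was the low one. Pax5, the factor of B cell identity, had the highest ratio, 1.95, but was at 0 in AL, 47.9 under DR and 187 in DR-AL, so that DR-AL was the highest library, as for the sperm genes. Whether the organs that gave the sperm RNA also gave Pax5 or other lymphocyte transcripts was not tested.

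T cell, NK cell and innate lymphoid genes were higher for 7 of 19 and lower for 2, with a median of 0.37 that fell to -0.17 with FPKM, a scale on which all loci stood at -0.58. The genes of this list were scarce, and 1 of them, which was lower, had at least 5 CPM in AL fat. Of all loci 24.7% were higher and 16.4% lower, and most of the higher ones were under 5 CPM too. Lck, the kinase of the T cell receptor, had 76.0 normalised counts in AL, 52.7 under DR and 117 in DR-AL, a log2 ratio of 1.14 (0.65 to 1.67). Cd3e, a chain of that receptor complex, had 38.6, 34.7 and 60.1, a ratio of 0.78. Cd8b1 had the highest ratio, 1.53, from 7.19 in DR and 21.7 in DR-AL. Gata3, a factor of T helper and innate lymphoid cells, was lower at -0.89, and Klrb1c, a marker of NK cells, was lower from 92.2 to 45.9. Foxp3, the factor of regulatory T cells, had a ratio of 0.21.

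Macrophage genes had 5 of 24 members lower and 1 higher, beside 16.4% and 24.7% of all loci. Their median was -0.42, or 0.49 relative to the adipocyte genes, where all loci stood at 0.89. The defining members did not reach the fold. Emr1, which encodes F4/80, had 327 normalised counts in AL, 460 under DR and 336 in DR-AL, a log2 ratio of -0.45, Csf1r, the receptor of the macrophage growth factor CSF1, had 1965, 2601 and 1796 (-0.53), and Cd68, a lysosomal protein, had 605, 667 and 709 (0.09). Genes of resident macrophages were among the lower ones, Timd4 at -1.20, Lyve1 at -0.87 and Mrc1 at -0.60, with the scavenger receptor Marco at -2.17 and the integrin Itgam at -1.29. Itgax, the CD11c gene that marks macrophages of obese fat and dendritic cells, was the higher member, with 157, 82.7 and 174 and a ratio of 1.07 (0.68 to 1.49). Spp1 and Trem2, genes of lipid-associated macrophages, were at 0.44 and -0.23.

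Antigen presentation had 0 of 16 members past the fold in either direction, while 11 were lower with FPKM and 11 higher relative to the adipocyte genes. Of all loci 49.7% were lower with FPKM and 70.8% higher relative to the adipocyte genes. The ratios ran from -0.56 for Tap2, a peptide transporter, to 0.30 for the class II gene H2-Ab1. Cd74, the invariant chain of class II molecules, had 11153 normalised counts in AL, 10860 under DR and 11653 in DR-AL. Interferon-stimulated genes were lower for 4 of 21 and higher for 2, beside 16.4% and 24.7% of all loci. Relative to the adipocyte genes 16 were higher. Irf7, a factor of the interferon response, was at -0.77. Mx1, an antiviral GTPase, was at 1.30, from 25.2 in DR to 62.6 in DR-AL. Usp18, which was at 0.62, changed sign with FPKM.

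Of 22 cytokine and chemokine genes, 7 were higher and 2 lower, with a median of 0.29. With FPKM it was -0.28, where all loci stood at -0.58. Of all loci 24.7% were higher and 16.4% lower. Among the 10 cytokine and chemokine genes with at least 5 CPM in AL fat, 2 were higher and 2 lower. Cxcl12, a chemokine of stromal cells, had 8884 normalised counts in AL, 3668 under DR and 6448 in DR-AL, a log2 ratio of 0.81 that changed sign with FPKM, and Cxcl10, an interferon-induced chemokine, was at 0.88 from 45.5 and 84.3. Nos2, inducible nitric oxide synthase, was at -1.43 and the alarmin Il33 at -0.65. Tnf had 21.6, 16.8 and 16.7, and Il6 and Il1b were under the filter. Granulocyte and mast cell genes had 1 of 11 higher and 2 lower, the higher being Ltf, lactoferrin, at 1.70. Ltf is also made by epithelium of the male reproductive tract, and the epididymal genes described below moved as well, a link that was not tested.

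Complement genes, which adipocytes express strongly, were mostly within the fold but its components parted. C3, the central component, had 64973 normalised counts in AL, 42057 under DR and 11348 in DR-AL, a log2 ratio of -1.89 (-1.92 to -1.86). C4b, which joins it in the classical convertase, had 29048, 7036 and 14641, a ratio of 1.06, and C6, of the membrane attack complex, had 2924, 502 and 1329, a ratio of 1.40. The remaining 11 of the 14 loci stood between -0.54 and 0.55, with Cfb and C2 merged as 1 locus in the table.

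**Figure D4:**
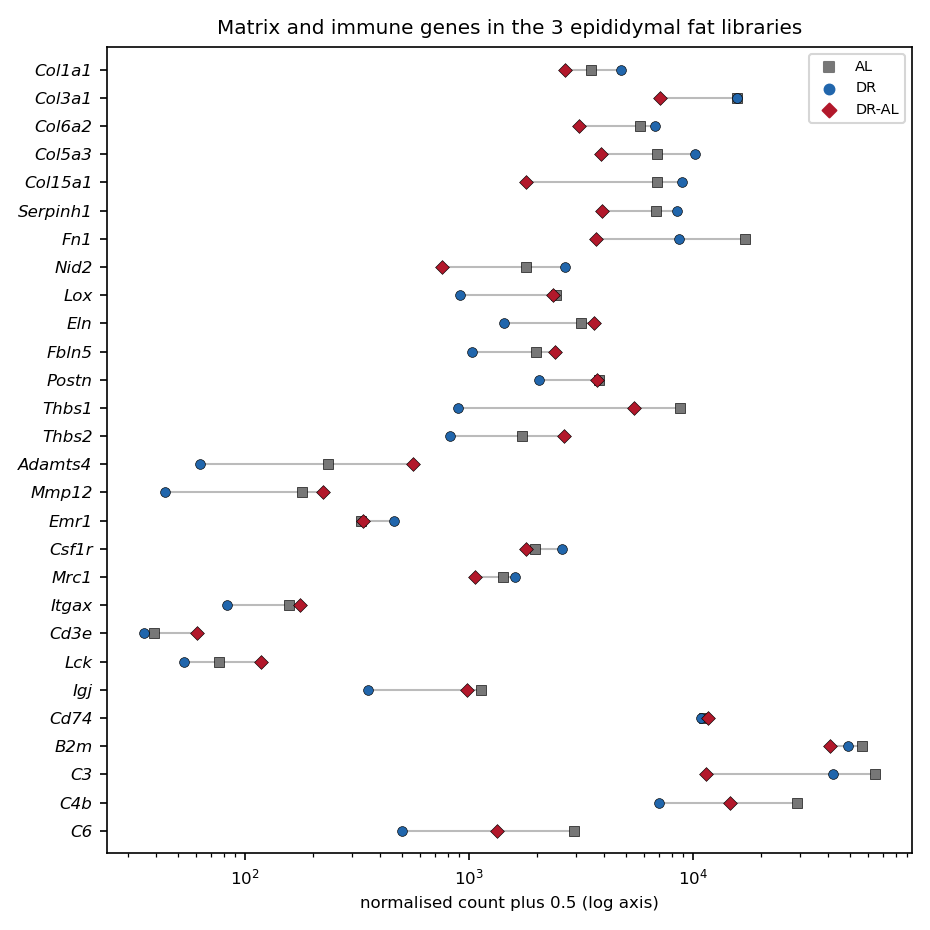
Normalised counts plus 0.5 on a log axis of matrix genes (Col1a1 to Mmp12) and immune genes (Emr1 to C6) in the AL (grey), DR (blue) and DR-AL (red) fat libraries, 1 library each. Collagens stand lowest in DR-AL, while Lox, Eln, Fbln5, Postn, Thbs1, Thbs2, Adamts4 and Mmp12 stand lowest in DR.

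In the matrix, collagens had a median of -0.61, or 0.29 relative to the adipocyte genes, where all loci stood at 0.89. They were lower for 11 of 20 and higher for 1, beside 16.4% and 24.7% of all loci. The fibrillar collagens carried part of this. Col3a1 had 15607 normalised counts in AL, 15586 under DR and 7086 in DR-AL, a log2 ratio of -1.14 (-1.18 to -1.10), Col1a1 had 3506, 4775 and 2668 (-0.84), and Col1a2 had 8570, 8277 and 5732 (-0.53). Collagen VI, which surrounds adipocytes as a beaded net, was at -0.85 for Col6a1, -1.14 for Col6a2 and -0.53 for Col6a3. Col15a1, of the basement membrane zone, had the widest fall, with 6915, 8875 and 1786 and a ratio of -2.31, followed by Col23a1, a transmembrane collagen, at -1.70. Collagen IV, the sheet of the basement membrane, was nearly level, Col4a1 at -0.29 and Col4a2 at -0.21. Col16a1 was the higher member at 0.69.

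Genes that process collagen were lower for 6 of 19 and higher for 1, beside 16.4% and 24.7% of all loci. Their median was -0.37, or 0.54 relative to the adipocyte genes, where all loci stood at 0.89. Serpinh1, the collagen chaperone HSP47, had 6780 normalised counts in AL, 8462 under DR and 3902 in DR-AL, a log2 ratio of -1.12, the lowest of the list. Plod3, a lysyl hydroxylase, was at -0.71. Lox, the oxidase that cross-links collagen and elastin, went the other way, with 2433, 909 and 2353 and a ratio of 1.37 (1.26 to 1.49).

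Matrix glycoproteins and proteoglycans had a median of -0.44, or 0.47 relative to the adipocyte genes, where all loci stood at 0.89. Of the 25, 11 were lower and 5 higher, beside 16.4% and 24.7% of all loci. Elastic fibre genes were among the 5. Eln, elastin, had 3162 normalised counts in AL, 1428 under DR and 3610 in DR-AL, a log2 ratio of 1.34, and Fbln5, which helps to assemble elastic fibres, had 1983, 1033 and 2416, a ratio of 1.23. Fbn1, fibrillin-1 of the same fibres, did not go with them, at -0.96. Thrombospondins had the highest ratios. Thbs1, which can activate latent TGF-beta, had 8756, 886 and 5426, a ratio of 2.61 (2.50 to 2.73), and Thbs2 had 1719, 823 and 2639, a ratio of 1.68. Postn, periostin, had 3773, 2056 and 3714 (0.85). Fibronectin, Fn1, had 16958, 8641 and 3678 and was lower at -1.23. The lowest of the list were Has2, a hyaluronan synthase, at -1.79, and Fbln1 at -1.35.

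Of 12 basement membrane genes 5 were lower and 1 higher, beside 16.4% and 24.7% of all loci. Their median was -0.48, or 0.43 relative to the adipocyte genes, where all loci stood at 0.89. Nid2, a nidogen that links laminin to collagen IV, had 1792 normalised counts in AL, 2683 under DR and 757 in DR-AL, a log2 ratio of -1.82, and the laminin chain Lamc1 was at -0.99. Perlecan, Hspg2, had 16882, 14946 and 12681, a ratio of -0.24. Npnt, nephronectin, was higher at 0.82.

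Proteases and their inhibitors were higher for 5 of 24 and lower for 4, beside 24.7% and 16.4% of all loci. Their median was -0.09. It was 0.17 with totals, where all loci stood at 0.24. Adamts4, an aggrecanase, had 234 normalised counts in AL, 62.3 under DR and 558 in DR-AL, a log2 ratio of 3.15 (2.75 to 3.60). Mmp12, the macrophage elastase, had 178, 43.1 and 223, a ratio of 2.36. Mmp19 was lowest at -1.62 and Mmp9, a gelatinase, stood at -0.69. Mmp14, the membrane collagenase of fat remodelling, had 2585, 2449 and 2620 (0.10). In the TGF-beta list 4 of 18 were lower and 3 higher, beside the same shares of all loci, with a median of 0.00. Cyr61 and Ctgf, matricellular targets of TGF-beta and mechanical signals, were higher at 1.15 and 0.70, and Inhbb, an activin subunit of adipocytes, was lower at -1.71.

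Genes of other cells in fat were set beside these groups, and beside all loci, of which 24.7% were higher and 16.4% lower. Endothelial genes were level, with 1 of 10 higher, 0 lower and a median of 0.11 (-0.50 with FPKM, where all loci stood at -0.58). Progenitor and fibroblast genes had 3 of 12 higher and 2 lower. Their median was -0.19, or 0.07 with totals, where all loci stood at 0.24. Pdgfra, the receptor that marks progenitors, had 1227 normalised counts in AL, 1476 under DR and 1109 in DR-AL. The adipocyte genes were lower for 7 of 10 with a median of -0.91, or -0.65 with totals. Smooth muscle genes were lower for 8 of 8 with a median of -1.60, as Myh11, smooth muscle myosin, with 14994, 39201 and 7140. Mesothelial genes, of the sheet that covers the depot, were lower for 5 of 8, as Upk3b at -2.20, with the shared epithelial keratin Krt18 higher at 0.87. The summed normalised counts of the smooth muscle list were 40300 in AL, 107353 under DR and 30330 in DR-AL. The part of these cells in the matrix values was not tested.

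Transcripts typical of other organs differed too. Germ cell genes were higher for 15 of 16, with a median log2 ratio of 2.09 and summed normalised counts of 1795 in AL, 24074 under DR and 92717 in DR-AL. The exception was Sycp3, of the meiotic chromosome axis, at 0.41. Genes of Leydig and Sertoli cells were higher for 9 of 11, as Cyp17a1, an enzyme of androgen synthesis, with 267, 569 and 1523, though Amh and Fshr were under the filter. Epididymal genes were lower for 7 and higher for 4 of 14. Crisp1, a secreted protein of the epididymis, had 25151, 76635 and 104678, while Gpx5, a glutathione peroxidase of its head region, had 10.2, 4586 and 116, and Lcn9 had 576 reads in DR and 0 in AL and DR-AL. Fast skeletal muscle genes were lower for 10 of 10. Myh4, a fast myosin, had 17 reads in AL, 3216 under DR and 2 in DR-AL. Liver genes were lower for 7 of 11 and higher for 2, with summed normalised counts of 481835 in AL, 145180 under DR and 94282 in DR-AL. Of these, Cyp2e1, which adipocytes also express, made up 143321 under DR and 93696 in DR-AL, and Alb was listed at 0 in all 15 libraries. None of the values above was adjusted for these transcripts.

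Of 17 genes of the circadian clock, 11 were lower and 2 higher, with a median of -1.16. Relative to the adipocyte genes it was -0.25, where all loci stood at 0.89. Arntl, which encodes the activator BMAL1, had 153 normalised counts in AL, 82.7 under DR and 320 in DR-AL, a log2 ratio of 1.95 (1.58 to 2.34), and its relative Npas2 had 52.2, 62.3 and 199 (1.67). Targets of that activator went the other way. Dbp, an output factor with a strong daily rhythm, had 1722, 3479 and 356, a ratio of -3.29 (-3.44 to -3.14), Per3 had 5783, 4538 and 1275 (-1.83), and Nr1d1, which encodes the repressor REV-ERB alpha, had 6615, 8484 and 3794 (-1.16). Per1, which also responds to hormones, had 4046, 5382 and 4288 (-0.33). The gene listed as Gm129, called Ciart in RefSeq and a repressor within the clock, had 322, 967 and 83.5, a ratio of -3.53. The time of day at which tissue was taken is not given in the sources used here, so a difference in time of collection cannot be told apart from diet or age. The promoter of Ciart, at chr3:95882179-95882478 on the minus strand of GRCm38.p6, is shown because this gene had the lowest ratio of the list. Capitals mark CACGTG, the E-box that BMAL1 and CLOCK bind, which occurred 3 times.
Ciart: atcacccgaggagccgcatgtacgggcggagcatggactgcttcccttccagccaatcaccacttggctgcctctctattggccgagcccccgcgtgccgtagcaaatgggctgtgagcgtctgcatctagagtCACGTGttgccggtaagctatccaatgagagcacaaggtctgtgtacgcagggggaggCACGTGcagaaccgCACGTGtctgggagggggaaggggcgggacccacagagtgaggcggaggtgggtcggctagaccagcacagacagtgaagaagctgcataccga
CACGTG was in 30.0% of 20 windows of 15 clock genes and CCAAT in 15 of the 20, against 7.15% and 37.4% of all windows. GGGCGG was in 90.0%, against 35.7%, and TATAAA and the PPAR element in 0.

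**Figure D5:**
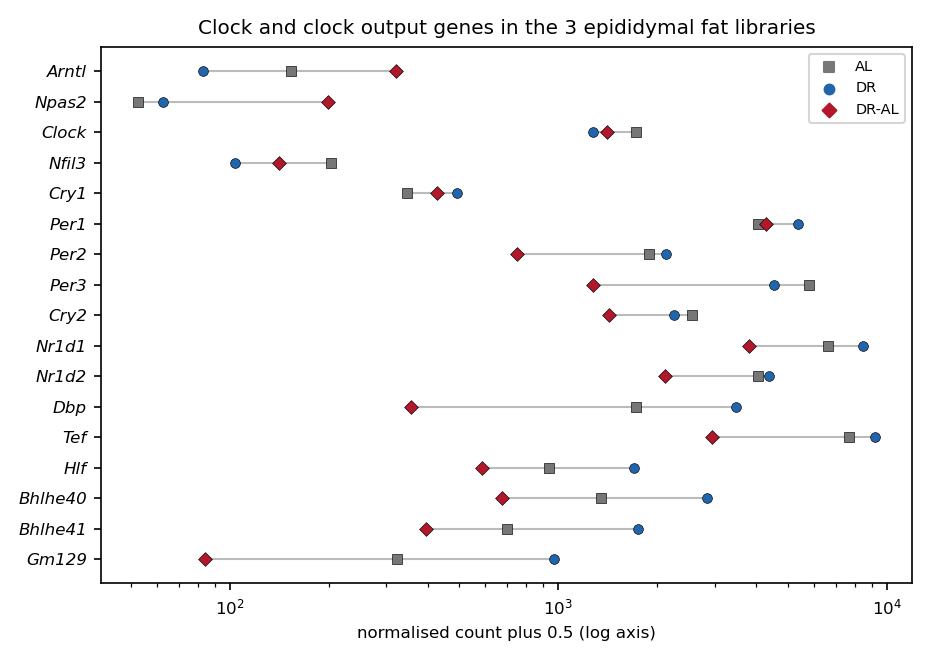
Normalised counts plus 0.5 on a log axis of 17 clock and clock output genes in the AL (grey), DR (blue) and DR-AL (red) fat libraries, 1 library each. DR-AL is the highest library for Arntl and Npas2 and the lowest for Dbp, Gm129, Per2, Per3, Nr1d1 and Tef.

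Glucocorticoid targets were higher for 4 of 11 and lower for 1, beside 24.7% and 16.4% of all loci. Pdk4, also in the glucose list, was among the 4. Their median was 0.38, or -0.18 with FPKM, where all loci stood at -0.58. Cdkn1a, the cell cycle inhibitor p21, had 771 normalised counts in AL, 558 under DR and 2739 in DR-AL, a log2 ratio of 2.29, and Sgk1, a kinase, was at 1.31, while Fkbp5, a co-chaperone of the receptor, was at -0.03. Immediate early genes had 1 of 13 higher, Fos at 0.81. Of 15 reference genes 5 were lower, Gapdh by the most at -1.71, and Actb had 40782, 36767 and 31510 (-0.22).

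Over the whole table, the 10 loci with the highest and the 10 with the lowest ratio were taken among 11187 loci with at least 5 CPM in AL fat and a mean of at least 100 normalised counts. The low end included Fasn, Elovl6, Acaca and Acss2, the muscle genes Ckm and Tnnc2 and the liver gene Ttr. H2-Q10, a class I gene expressed by the liver, had 6494, 3730 and 85.1, a log2 ratio of -5.45; it has near-identical relatives, and its value depends on how reads were shared among them. Cldn22 and Cldn24, listed as 1 locus, were at -4.44. At the high end stood neighbouring imprinted genes. Zim1 had 870 normalised counts in AL, 29.9 under DR and 935 in DR-AL, a log2 ratio of 4.94 (4.39 to 5.60), and Peg3, an imprinted zinc finger gene, had 11574, 847 and 9284, a ratio of 3.45 (3.34 to 3.57). Peg3as, listed as its antisense partner, had 1166, 61.1 and 572 (3.22), with the strand of the reads kept in the library. In all 3 the DR library was the low one, as it was for the imprinted Mest and for the other loci of the high end. That end was ranked by DR-AL over DR and required at least 5 CPM in AL fat, which favours loci with a low DR library. Vnn1, a pantetheinase, had 1656, 97.0 and 962 (3.30), followed by Adamts4, Sctr, the secretin receptor, at 3.11, Cacna1e at 3.10, Mir34a at 2.80, Gprin3 at 2.78 and Efcab8 at 2.72.

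The same 2 diets in the other tissues are set beside fat, without a test. In liver, colon, hypothalamus and hippocampus, in that order, B cell genes had median ratios of 1.10, 2.36, 0.03 and -0.35. The T cell list had 0.86, 1.95, -0.13 and 0.52. Smooth muscle genes had -0.66, -1.20, -0.85 and 0.35, and clock genes -1.25, -0.16, -0.34 and -0.15. Differences of these lists in fat were thus shared in sign with some other tissues. Fasn had a ratio of -3.99 in liver (-4.10 to -3.89), where it had 12468 normalised counts in DR and 782 in DR-AL, and of -0.17 in colon, -0.07 in hypothalamus and -0.04 in hippocampus. The lipogenic list was lower for 14 of 17 genes in liver with a median of -1.42, against -3.59 in fat, and cholesterol synthesis was lower for 15 of 16 in liver with a median of -2.35, against -1.04 in fat. In liver 17.7% of all 12831 loci tested were lower and 19.5% higher. Dbp was lower in all 5 tissues, from -3.29 in fat and -2.79 in liver to -1.65 in colon, -0.82 in hypothalamus and -0.74 in hippocampus. All 5 tissues were taken from the same mice, so they are not separate animals.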

How the data were processed

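The deposited table held counts and FPKM values per locus for 15 libraries, 1 per tissue and diet, and 0 of its sample columns were left unmapped. Per the methods, libraries kept the strand, and the authors used Strand software (Agilent) to trim reads, align them to mm10, remove duplicates and make read counts, while the submitters' processing notes name mm9 and DESeq2. Of the symbols shared with RefSeq GRCm38.p6, 13.6% overlapped it by position, so no position of the table is printed. The deposited FPKM values, computed by the authors per length and depth, had a median of 0.262 per CPM in AL fat, 0.159 in DR and 0.0860 in DR-AL and were compared only within a library, except as an alternative.

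Counts were scaled with median-of-ratios size factors (DESeq2 1.42.0, R 4.3.3) of 0.835 for DR and 1.20 for DR-AL. The AL library was put on that scale with a factor of 0.882. Loci without a gene name took 0.655%, 0.666% and 1.39% of counts in AL, DR and DR-AL and were left out. Log2 ratios used a pseudocount of 0.5, a mean of at least 10 normalised counts and a fold of 1.5. Exact (Clopper-Pearson) 95% intervals of the ratio cover counting error only. With 1 library a side no test was possible, so neither edgeR nor DESeq2 was used to call genes. The members and gene lists were chosen with earlier results of these data known. Genes named are the highest and lowest of each list, its defining members and the 10 extreme loci on each side, and some further members were named after their values were seen. Alternatives were library totals, TMM (edgeR 4.0.16), size factors from 3 libraries or from loci of at least 5 CPM in AL fat, FPKM with a pseudocount of 0.1, a pseudocount of 5, no filter, a mean of at least 50, a fold of 2, the study's Z test with a fold of 1.25, and loci with 1 name. Ratios relative to the 10 adipocyte genes, and calls among loci of at least 5 CPM in AL fat, were added after the data were seen. Some genes are not reported here. Scripts were tested on simulated data with counting error only, in which 200 loci were changed 2-fold. The fold of 1.5 recovered 199 of them and made 455 false calls, with 17352 loci tested. The Z test with a fold of 1.25 recovered 185 and made 10 false calls, with 19943 loci tested. Promoter windows are from RefSeq GRCm38.p6 and were read with Python 3.11.15.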

Additional observations from a re-analysis of the deposited data

Results flagged for a closer look

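The medians of these 2 lists had opposite signs in fat and liver between the same diets. Neither difference was tested, since each tissue and diet has 1 library. Triglyceride synthesis and lipid droplet genes had a median log2 ratio of 0.71 in liver, with 9 of 15 higher in DR-AL and 2 lower, against -1.28 in fat. Fatty acid oxidation and thermogenesis genes had a median of 0.62 in liver, with 11 of 20 higher and 0 lower, against -0.93 in fat. Among all loci tested in liver, 19.5% were higher and 17.7% lower. The adipocyte genes themselves had a median of -0.91 in fat. Relative to them the fat medians were -0.37 for the triglyceride list and -0.02 for the oxidation list, where all loci stood at 0.89.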

How the results depend on the processing

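Calls held best where a ratio was wide, and counts of calls moved with the scaling. Loci lower in DR-AL numbered 1641 with totals, 8598 with FPKM and 1226 at a fold of 2. Loci higher numbered 2248 with FPKM, 7818 with the Z test and 996 among loci of at least 5 CPM in AL fat. Adipose metabolism had 5 members higher with FPKM, 7 higher and 56 lower at a fold of 2, 28 higher with the Z test, and 46 higher and 35 lower relative to the adipocyte genes. Immune genes had 41 higher and 9 lower with totals, 10 lower with size factors from loci of at least 5 CPM, 3 higher and 69 lower with FPKM, 13 and 5 at a fold of 2, 52 higher with the Z test, 9 higher and 11 lower of 84 among loci of at least 5 CPM, and 99 and 2 relative to the adipocyte genes. Matrix genes had 21 lower with totals, 27 with size factors from 3 libraries, 24 with size factors from loci of at least 5 CPM, 6 higher and 82 lower with FPKM, 8 and 16 at a fold of 2, 32 higher with the Z test, and 57 and 6 relative to the adipocyte genes. FPKM turned the sign of Cpt1b (-0.15), Ucp2 (-0.0755), Ucp3 (-0.0347), Cr2 (-0.0327), Usp18 (-0.0641), Ccl8 (-0.0420), Cxcl12 (-0.10), Skil (-0.0356) and Gapdhs (-0.33). The cause of the moves with FPKM, which did not shift all lists alike, was not tested. The relative and 5 CPM settings were chosen after seeing the data. No paired analysis was possible because each diet has 1 library in fat, and leaving out a library leaves no comparison. Genes with few counts, as those of T cells, have wide counting intervals.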
